A study of Mus musculus with 45 samples.

Results

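The 46 genes described here encode nucleolar proteins that make ribosomes, and they were taken by name from a table of 24421 mouse genes. The rule was a list of gene symbols with no threshold on expression, chosen with earlier results of these data known. By known function the list was divided into 5 genes of RNA polymerase I transcription, 4 of box C/D small nucleolar ribonucleoproteins, 3 of box H/ACA ribonucleoproteins, 4 multifunctional nucleolar proteins, 12 factors of the small subunit and 18 factors of the large subunit. All 46 genes passed the filter on low values, and the fewest reads of any of them in any library was 70.

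Ribosome production starts in the nucleolus, where RNA polymerase I copies the ribosomal DNA into a long precursor RNA. Small nucleolar RNAs, packed with fibrillarin or dyskerin and their partners, guide chemical modification and cleavage of that precursor, and many assembly factors then fold and trim it into the small and the large subunit. Genes of this kind are classical targets of the transcription factor MYC.

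The cells were bone-marrow-derived macrophages of C57BL/6 mice on day 7 of differentiation in medium conditioned by L929 cells, a primary culture model of macrophages. Groups of 3 libraries each came from cells given both cytokines for 2 h or 4 h, IL-4 alone (10 ng/ml) for 2 h or 4 h, IFN-γ alone (100 ng/ml) for 2 h or 4 h, and cells with no treatment. IL-4 drives alternative activation of macrophages and IFN-γ drives classical activation, and the series asks how those programs act on each other. The other 24 samples of the series, with short hairpin RNAs, are not analysed here. The labels name no animal or culture for a replicate, and p-values therefore measure only the spread between these samples.

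Levels are given as rescaled CPM, deposited CPM corrected by a factor per library, and a gene was called, that is said to have risen or fallen, at a limma adjusted p under 0.05 over all 11380 genes tested. Log2 changes are of rescaled CPM + 1, which understates the changes of low genes, and a value after ± is a standard error for a log2 change and a standard deviation for a level (n = 3 libraries). The correction bears on every comparison with untreated cells, and also on those between treated groups. Among treated libraries the factor ran from 0.804 (IFN-γ 4 h replicate 1) to 1.22 (IL-4 4 h replicate 2). The ribosomal precursor gene Rn45s held at most 3.21% of reads in treated libraries, against 0.151%, 43.2% and 15.7% in untreated replicates 1, 2 and 3. The libraries held 28920801 to 80028327 assigned reads. All 10 macrophage markers were detected, with summed levels of 16848 to 37567 rescaled CPM over the 21 libraries. Markers of other cells summed, over the libraries, to 52.3 to 276 rescaled CPM for 7 neutrophil genes, 5.47 to 34.9 for 4 endothelial, 6.52 to 17.8 for 6 fibroblast, 3.44 to 14.9 for 6 B cell, 0.587 to 9.78 for 4 mast cell or basophil, 0.997 to 2.91 for 4 dendritic cell and at most 0.124 for 5 erythroid genes. The 5 T cell genes summed to 2.70 to 16.7 in the libraries given IFN-γ with or without IL-4, against 0.212 to 0.966 in those given IL-4 alone or nothing. Of these 5 only Lck passed the filter on low values, while Cd3e, Cd3d, Cd3g and Cd2 did not. Likewise only Cd79b of the B cell, Xcr1 of the dendritic cell and Kit of the mast cell or basophil genes passed it. Pax5 of the B cells and Hba-a1, Hbb-bs and Hbb-b1 of the erythroid genes were at 0 throughout. The part of other cells in the results was not tested. Libraries of the same replicate number were alike across groups: 18 proliferation genes summed to 1305 to 2445 rescaled CPM in the 7 libraries of replicate 2, against 339 to 509 in replicate 1 and 476 to 866 in replicate 3.

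Several of these genes have small nucleolar RNA genes inside their bounds. A small nucleolar RNA gene lay inside 7 of the 46 genes (15.2%), against 191 of 10658 protein-coding genes tested (1.79%). They were Nop56, Nop58, Dkc1, Ncl, Wdr43, Gnl3 and Ppan. The 3 RNAs printed next, from Gnl3 and Nop56, were chosen because both host genes rose with IL-4 (below) and small nucleolar RNAs guide the modification of ribosomal RNA. They come from GRCm38 (GENCODE vM21), at chr14:31014287-31014366 on the minus strand, chr14:31016206-31016281 on the minus strand and chr2:130278016-130278087 on the plus strand, and capitals mark a match to box C (GTGATGA), which was found only in Snord69 of the 3, and the CTGA nearest the 3′ end, the usual place of box D. Other CTGA matches are left in lower case.
Snord69: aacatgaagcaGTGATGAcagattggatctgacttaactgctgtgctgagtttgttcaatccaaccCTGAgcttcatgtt
Snord19: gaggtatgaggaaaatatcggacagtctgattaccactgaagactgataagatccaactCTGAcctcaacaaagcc
Snord57: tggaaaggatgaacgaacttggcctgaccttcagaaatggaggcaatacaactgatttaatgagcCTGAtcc
Libraries of poly(A) RNA do not measure these short RNAs, and their levels are not analysed here.

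Promoters of 39 of the 46 genes were in the RefSeq table (GRCm38.p6), each from 250 bases before to 50 after the gene's start. The letters CACGTG, the E-box that MYC binds with MAX, were found in 5 of them (12.8%), in Ltv1, Nop2, Pes1, Utp20 and Wdr43, against 12.05% of the promoters of 8783 genes tested and 8.09% of 27025 promoters in all. The interferon-stimulated response element, searched as a pair of GAAA with a gap of NN, was in 1 promoter, that of Nip7 (2.56%, against 4.06% and 3.99%). Both strands were searched, and no promoter held both motifs. The window of Nop2, a large-subunit gene raised by IL-4, is printed because it holds the E-box, in capitals. It is chr6:125131783-125131882 on the plus strand, with the match 60 bases before the start.
Nop2: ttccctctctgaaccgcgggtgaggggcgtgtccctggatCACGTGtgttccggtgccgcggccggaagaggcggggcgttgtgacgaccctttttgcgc
A match of letters is a description, not a binding site.

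Levels were compared between genes per kilobase of exon, as means over all 21 libraries. Npm1, nucleophosmin, a histone and ribosome chaperone, was highest at 143 rescaled CPM per kb, followed by Pes1 (40.1), Ncl (36.2), Noc2l (28.0) and Ddx21 (27.0). Within the other roles the highest levels per kb were those of Tcof1 (13.97), Fbl (11.2), Nhp2 (22.2) and Noc4l (23.5). The place of Noc4l came from the libraries given IFN-γ: in untreated cells it was at 4.96 ± 0.622 per kb, behind 5 other small-subunit genes led by Nop14 (10.8 ± 1.13). The lowest means of all 46 belonged to Polr1e, Rrp1b and Polr1a at 1.28, 1.43 and 1.62. Lengths are the union of all annotated exons, retained introns included, which lowers the value per kb of genes such as Ppan, whose annotated exons cover its whole length.

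**Figure D1:**
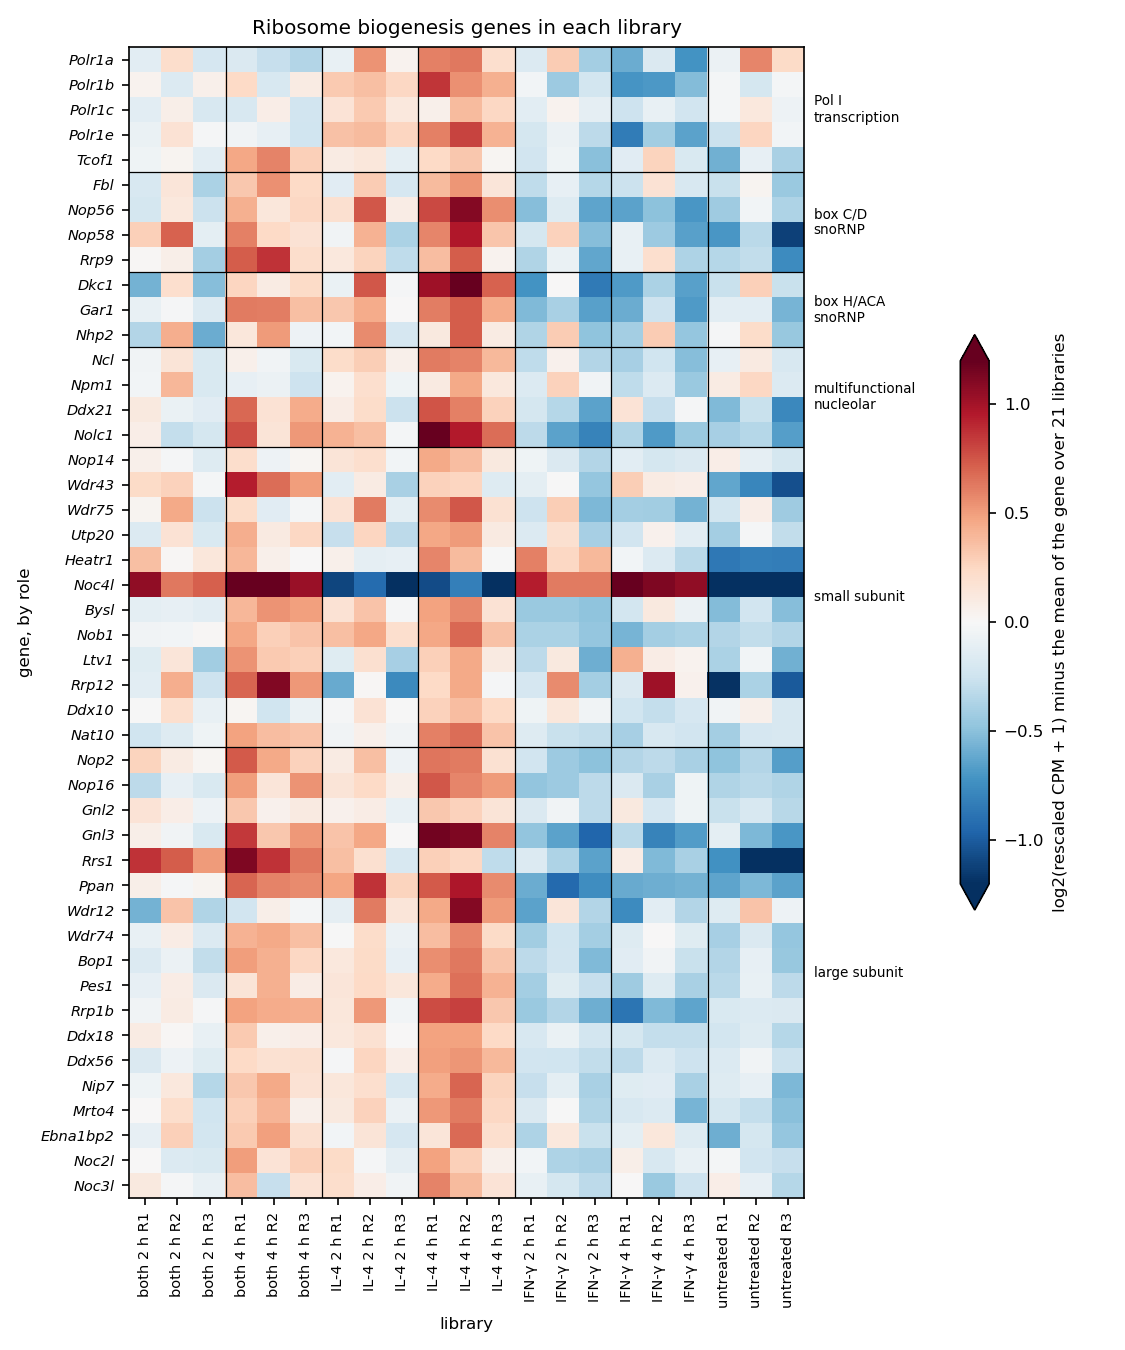
Level of each of the 46 genes (rows, by role) in each of the 21 libraries (columns, by group), as log2(rescaled CPM + 1) minus the gene's mean over the 21 libraries; the scale ends at the arrows. The IL-4 4 h and both-cytokine 4 h columns are red for most genes, while Noc4l is red only in the 12 libraries that received IFN-γ.

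After 4 h of IL-4 most of the list rose. Of the 46 genes 41 rose and 0 fell, against 11.4% of all genes tested called higher and 10.6% called lower in this comparison. The median log2 change of the 46 genes was 0.74, beside -0.02 for all genes, and all 46 were above 0 (47.0% of all genes were). In bulk RNA a change in the share of cells that express a gene cannot be told apart from a change of RNA per cell.

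The largest rise was that of Nolc1, a nucleolar phosphoprotein that binds small nucleolar ribonucleoproteins, which was at 109, 89.4 and 73.5 rescaled CPM after 4 h of IL-4, against 34.5, 35.9 and 28.6 in untreated cells. Every IL-4 library was far above the untreated ones. The log2 change was 1.42 ± 0.18 (adjusted p = 2.8e-05). Gnl3, nucleostemin, a GTPase of large-subunit assembly, was at 92.7, 90.6 and 62.4 with IL-4, against 37.9, 28.0 and 24.96 untreated (1.41 ± 0.20, adjusted p = 6.4e-05). Ppan, a Brix-domain protein of the large subunit, was at 25.1, 29.7 and 22.1 with IL-4, against a narrow 9.10, 9.78 and 9.03 untreated (1.36 ± 0.13, adjusted p = 1.3e-06). In neither gene did the groups overlap, and in both the third IL-4 replicate was the lowest of its group.

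Box C/D ribonucleoproteins methylate and help to cleave ribosomal RNA, and all 4 of their genes in the list were called. Nop58 was at 60.3, 78.6 and 50.7 with IL-4, against 24.2, 31.7 and 17.8 untreated (1.34 ± 0.27, adjusted p = 0.0016), and Nop56 at 67.5, 83.9 and 57.1, against 28.4, 37.7 and 29.6 (1.09 ± 0.18, adjusted p = 3.3e-04). Replicate 2 was the highest in both groups for both genes. Rrp9, which belongs to the U3 particle, and Fbl, fibrillarin, the methyltransferase itself, rose by less (0.84 ± 0.23 and 0.58 ± 0.17). Among the box H/ACA proteins, which convert uridine to pseudouridine, Dkc1, the pseudouridine synthase, was at 32.5, 43.1 and 26.1 with IL-4, against 12.8, 19.1 and 12.7 untreated (1.13 ± 0.27, adjusted p = 0.0059). Gar1 rose by 0.87 ± 0.15 on the log2 scale. Nhp2 was not called (0.40 ± 0.31) but was with the replicate number as a block (adjusted p = 0.0022).

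All 12 small-subunit factors and 17 of 18 large-subunit factors were called at 4 h of IL-4. Heatr1, the mouse counterpart of yeast Utp10 in the small-subunit processome, was at 167, 145 and 110, against 60.8, 62.4 and 61.8 untreated (1.16 ± 0.15, adjusted p = 2.0e-05). Rrp12, an export factor of the small subunit, rose by 1.08 ± 0.33, Wdr43 by 0.95 ± 0.17, and Nob1, the nuclease that makes the end of the small subunit's RNA, by 0.84 ± 0.10. Ddx10, a helicase, had the smallest called change (0.35 ± 0.10). Its call was lost without IL-4 replicate 2 (adjusted p = 0.066) or without untreated replicate 3 (adjusted p = 0.089). Rrs1, which brings the 5S particle into the large subunit, was at 32.3, 31.3 and 21.1, against 15.4, 10.5 and 9.65 untreated (1.19 ± 0.22, adjusted p = 7.3e-04). Bop1 and Pes1, which form a complex with Wdr12, rose by 0.81 ± 0.12 and 0.75 ± 0.11. Wdr12 itself was not called (0.65 ± 0.27, adjusted p = 0.099), though it was with the replicate block (adjusted p = 5.2e-05).

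Of the 5 genes of RNA polymerase I transcription 3 rose. Polr1b, the second-largest subunit, rose by 0.70 ± 0.13, Polr1e by 0.62 ± 0.14 and Tcof1, treacle, which recruits the polymerase, by 0.55 ± 0.15. Polr1a, the largest subunit, was at 28.8, 29.4 and 21.5 rescaled CPM with IL-4, against 17.7, 28.4 and 21.9 untreated, with overlapping groups (0.23 ± 0.22, adjusted p = 0.52). Polr1c, which RNA polymerase III shares, changed by 0.21 ± 0.11 (adjusted p = 0.19, and 0.0082 with the replicate block), and Npm1 by 0.17 ± 0.16 (adjusted p = 0.52). In CPM as deposited these 3 genes were called too (log2 changes 0.71, 0.69 and 0.67), on a scale where 34.1% of all genes were called higher and 2.55% lower. The count of 41 was 23 without replicate 1 of every group. Here and below, shares of all genes are not given for counts with libraries left out. Such counts alone cannot tell a change of the members from a change in the calls over all genes.

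At 2 h of IL-4 fewer genes were called. Of the 46 genes 16 rose and 0 fell. Of all genes 5.25% were higher and 3.38% lower (8.63% in either direction). The members' median log2 change was 0.39, beside -0.02 for all genes. With the replicate block 36 were called higher, against 12.8% of all genes, and 37 in CPM as deposited, against 16.1%. All 16 were also among the 41 of 4 h, with which they share the untreated libraries.

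Rrs1 and Ppan led at this time. Rrs1 was at 34.03, 30.1 and 22.9 rescaled CPM at 2 h of IL-4, against 15.4, 10.5 and 9.65 untreated, without overlap (1.23 ± 0.22, adjusted p = 0.0013). Ppan was at 20.7, 27.5 and 17.8, against 9.10, 9.78 and 9.03 (1.14 ± 0.13, adjusted p = 1.9e-05). In both genes these values overlapped those at 4 h of IL-4. Heatr1 rose by 0.79 ± 0.15, Gnl3 by 0.72 ± 0.20, Nolc1 by 0.72 ± 0.18, Wdr43 by 0.68 ± 0.17, Nob1 by 0.68 ± 0.10 and Nop2, a methyltransferase of the large subunit's RNA, by 0.63 ± 0.15. The members nearest to no change were Npm1 (0.01 ± 0.16), Polr1a (-0.09 ± 0.22), Ddx10 (0.11 ± 0.10) and Utp20 (0.13 ± 0.18). The count of 16 was 4 without replicate 1 or without replicate 3 of every group and 10 without replicate 2. It was 8 and 6 without IL-4 replicate 1 or 2, and 6 without untreated replicate 3. Gnl3, Nolc1, Wdr43 and Nop2 lost their calls without single libraries, with log2 changes of 0.52 to 0.69 and adjusted p of 0.051 to 0.15: each without IL-4 replicate 2 and without untreated replicate 3, all but Nop2 without IL-4 replicate 1, and Gnl3 without untreated replicate 2.

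Between 2 h and 4 h of IL-4 the members' median log2 change was 0.34 (all genes 0.00), and 45 of 46 were above 0. Only 3 were called, Nat10 (0.55 ± 0.10), Nop16 (0.46 ± 0.11) and Ddx56 (0.36 ± 0.08), against 1.28% of all genes called higher and 1.5% lower (2.79% in either direction). Under the replicate block 30 were called higher, against 9.48% of all genes, and in CPM as deposited 0 were called, with 0.439% of all genes higher. Nat10, which acetylates the small subunit's RNA, was at 46.7, 49.0 and 39.0 rescaled CPM at 4 h, against 29.6, 31.8 and 29.5 at 2 h, without overlap. Nop16 and Ddx56 lost their calls without most single libraries: Nop16 without any 1 of the 6 (adjusted p 0.064 to 0.16), and Ddx56 without IL-4 2 h replicate 1 or 3 or 4 h replicate 1 or 2 (0.097 to 0.15). The count was 0 without replicate 1 or without replicate 3 of every group, 7 without replicate 2, and 1 without any 1 of IL-4 2 h replicates 1 and 3 and IL-4 4 h replicates 1 and 2. Polr1c (0.03 ± 0.11), Rrs1 (-0.04 ± 0.22) and Noc4l (0.08 ± 0.16) were the closest to no change.

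**Figure D2:**
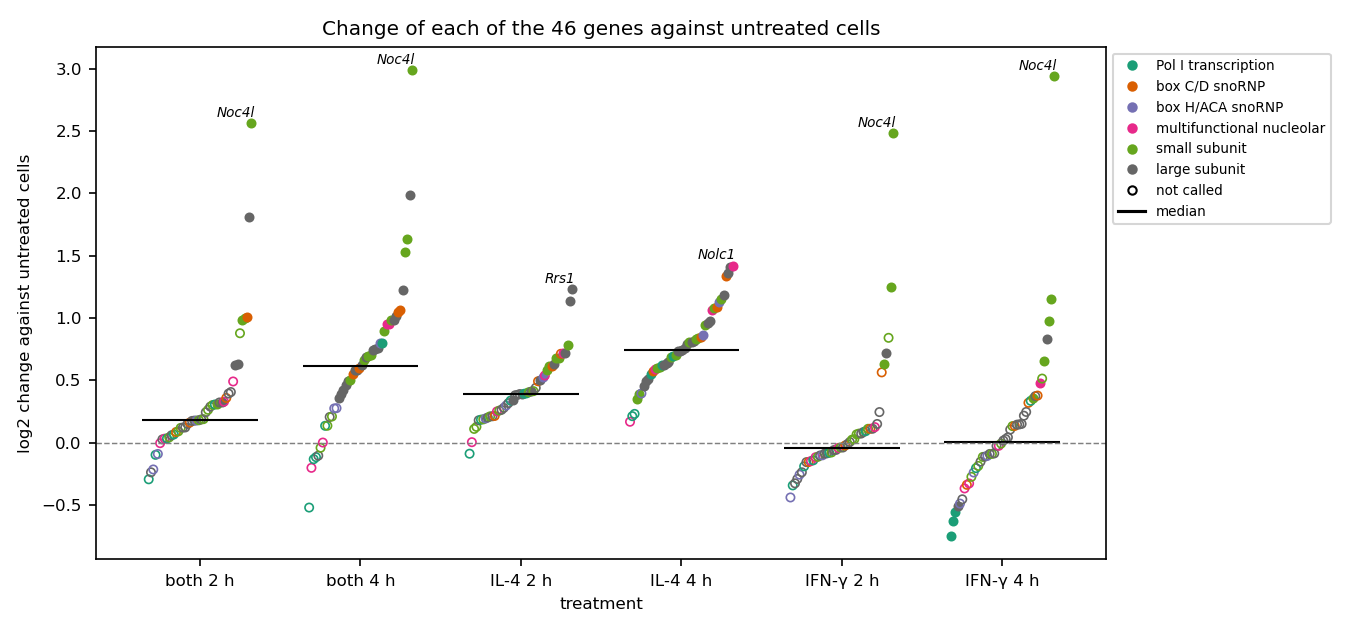
Log2 change against untreated cells of each of the 46 genes under 6 treatments, ordered by size within a treatment; filled points were called, open points were not, colours give the role and the black line is the median. The medians are 0.74 at 4 h of IL-4 and 0.61 at 4 h of both cytokines, and near 0 with IFN-γ alone, where Noc4l stands far above the rest.

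IFN-γ alone raised a few genes strongly, while the list's median stayed near 0. At 2 h, 4 of 46 genes rose and 0 fell, against 10.4% of all genes higher and 7.5% lower, and the median log2 change was -0.04. The members' share was below the background in this comparison. When the replicate number was a block, 7 were higher and 4 lower, against 19.5% and 19% of all genes.

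Noc4l, a small-subunit factor whose yeast counterpart works with Nop14, showed the largest change of the list. It was at 88.7, 70.9 and 70.8 rescaled CPM at 2 h of IFN-γ, against 12.2, 14.7 and 11.7 in untreated cells. The lowest IFN-γ library was well above the highest untreated one (2.48 ± 0.16, adjusted p = 1.4e-08). At 4 h of IFN-γ it was at 119, 100 and 96.6 (2.94 ± 0.16, adjusted p = 5.9e-10). IL-4 alone raised Noc4l by less, to 20.7, 23.7 and 16.8 at 2 h and 21.2, 25.4 and 18.4 at 4 h, and it was called at both times. The gene (ENSMUSG00000033294.11) lies on chromosome 5 at 110648418 to 110653417, minus strand.

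Heatr1 was at 169, 132 and 145 rescaled CPM at 2 h of IFN-γ, against 60.8, 62.4 and 61.8 in untreated cells (1.25 ± 0.15, adjusted p = 9.0e-06). At 4 h of IFN-γ it was back to 108, 99.0 and 88.1, which was still above all untreated libraries (0.66 ± 0.15, adjusted p = 0.0017). The fall between 4 h and 2 h was itself called (-0.59 ± 0.15, adjusted p = 0.0099), and Heatr1 was the only member whose highest group mean was that of IFN-γ at 2 h. Without IFN-γ 4 h replicate 3 the fall just missed the threshold (adjusted p = 0.051). The libraries of IFN-γ at 2 h overlapped those of IL-4 at 4 h (167, 145 and 110), so which group was highest is open.

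Rrs1 and Wdr43 rose as well at 2 h of IFN-γ. Rrs1 was at 23.3, 20.1 and 16.5, against 15.4, 10.5 and 9.65 untreated, the groups lying close together (0.72 ± 0.22, adjusted p = 0.029), and Wdr43 changed by 0.63 ± 0.17 (adjusted p = 0.013). Rrs1 lost its call without IFN-γ replicate 1 or 2 or untreated replicate 2 or 3 (0.59 to 0.71, adjusted p 0.075 to 0.13), and Wdr43 lost it without IFN-γ replicate 2 or untreated replicate 3 (0.53 and 0.51, adjusted p 0.066 and 0.077). The count of 4 was 2 without either of IFN-γ replicate 2 and untreated replicate 3. Nip7, Wdr74, Fbl and Wdr75 were nearest to no change (0.01 ± 0.16, -0.01 ± 0.11, -0.02 ± 0.17 and 0.03 ± 0.23).

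At 4 h of IFN-γ the genes split: 7 rose and 4 fell, against 20.6% of all genes higher and 18.5% lower, with both shares below the background, and the median log2 change was 0.01. With the replicate block 14 rose and 11 fell, against 31.6% and 31.8% of all genes. Of the 7 that rose 5 were small-subunit factors, namely Noc4l, Rrp12, Wdr43, Heatr1 and Bysl. Rrp12 was at 21.8, 51.1 and 25.8 rescaled CPM, against 10.4, 18.9 and 11.9 untreated (1.15 ± 0.33, adjusted p = 0.010). Replicate 2 was the highest in both groups, and without IFN-γ replicate 2 the call was lost (0.79, adjusted p = 0.059). Wdr43, the counterpart of yeast Utp5, was at 75.8, 65.8 and 64.9, against 39.5, 35.2 and 29.0 untreated (0.98 ± 0.17, adjusted p = 1.8e-04). Rrs1 rose by 0.83 ± 0.22, Ddx21, a helicase that acts in polymerase I transcription and processing, by 0.48 ± 0.18, and Bysl by 0.36 ± 0.12. Ddx21 was higher in 2 of 3 same-numbered pairs and its groups overlapped.

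The 4 genes that fell at 4 h of IFN-γ were 3 subunits of RNA polymerase I and Rrp1b of the large subunit. Polr1a was at 11.98, 16.3 and 10.9 rescaled CPM, against 17.7, 28.4 and 21.9 untreated (-0.74 ± 0.22, adjusted p = 0.012). Polr1e was at 2.23, 3.34 and 2.70, against 3.84, 5.92 and 4.68 (-0.63 ± 0.14, adjusted p = 0.0022), and Polr1b at 8.85, 9.02 and 10.3, against 14.8, 12.9 and 14.9 (-0.55 ± 0.13, adjusted p = 0.0036). In all 3 genes every IFN-γ library was below every untreated one. Rrp1b was at 5.19, 6.91 and 6.35, against 9.07, 9.18 and 9.11 (-0.51 ± 0.14, adjusted p = 0.0097). In CPM as deposited the direction was the same, but none of these 4 was called (log2 changes of -0.61, -0.49, -0.43 and -0.38 for Polr1a, Polr1e, Polr1b and Rrp1b, adjusted p 0.059 to 0.24), and 0 members were called lower. Polr1a also lost its call without IFN-γ replicate 3 or untreated replicate 2 (adjusted p = 0.056 and 0.066), and Rrp1b without IFN-γ replicate 1 (adjusted p = 0.058).

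Of the other polymerase I members, Polr1c was not called at 4 h of IFN-γ (-0.20 ± 0.11, adjusted p = 0.16, and 0.0083 with the replicate block), nor was Tcof1 (0.34 ± 0.15, adjusted p = 0.086, and 0.0024 with the block). The abundant proteins Ncl and Npm1 stood at -0.32 ± 0.13 and -0.36 ± 0.16 (adjusted p = 0.054 and 0.078) and were lower with the block (adjusted p = 6.9e-04 and 8.8e-04). The members nearest to no change were Nat10 (-0.01 ± 0.10), Ppan (0.02 ± 0.13), Nolc1 (-0.02 ± 0.18) and Ddx18 (-0.02 ± 0.09). The count of 11 called at 4 h of IFN-γ was 6, 19 and 5 without replicate 1, 2 or 3 of every group.

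Between 2 h and 4 h of IFN-γ, Heatr1, Polr1e (-0.44 ± 0.14) and Polr1b (-0.41 ± 0.13) fell and Bysl rose (0.40 ± 0.12), against 7.92% of all genes called lower and 9.8% called higher. Under the replicate block 10 rose and 7 fell, against 23% and 22.4%, and in CPM as deposited only Heatr1 fell and 0 rose. The calls of Polr1e, Polr1b and Bysl were lost without most single libraries: Polr1e without any of the 6 but IFN-γ 4 h replicate 2 (adjusted p 0.057 to 0.20), Polr1b without any but IFN-γ 2 h replicate 2 (0.052 to 0.17) and Bysl without any but IFN-γ 4 h replicate 1 (0.065 to 0.11). The count of 4 was 1 and 0 without replicate 1 or 3 of every group, 1 without IFN-γ 2 h replicate 3, 0 without IFN-γ 4 h replicate 3, and 2 without any 1 of IFN-γ 2 h replicate 1 and IFN-γ 4 h replicates 1 and 2. Nhp2, Ddx56 and Gar1 were nearest to no change (0.00 ± 0.31, 0.01 ± 0.08 and 0.02 ± 0.15).

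**Figure D3:**
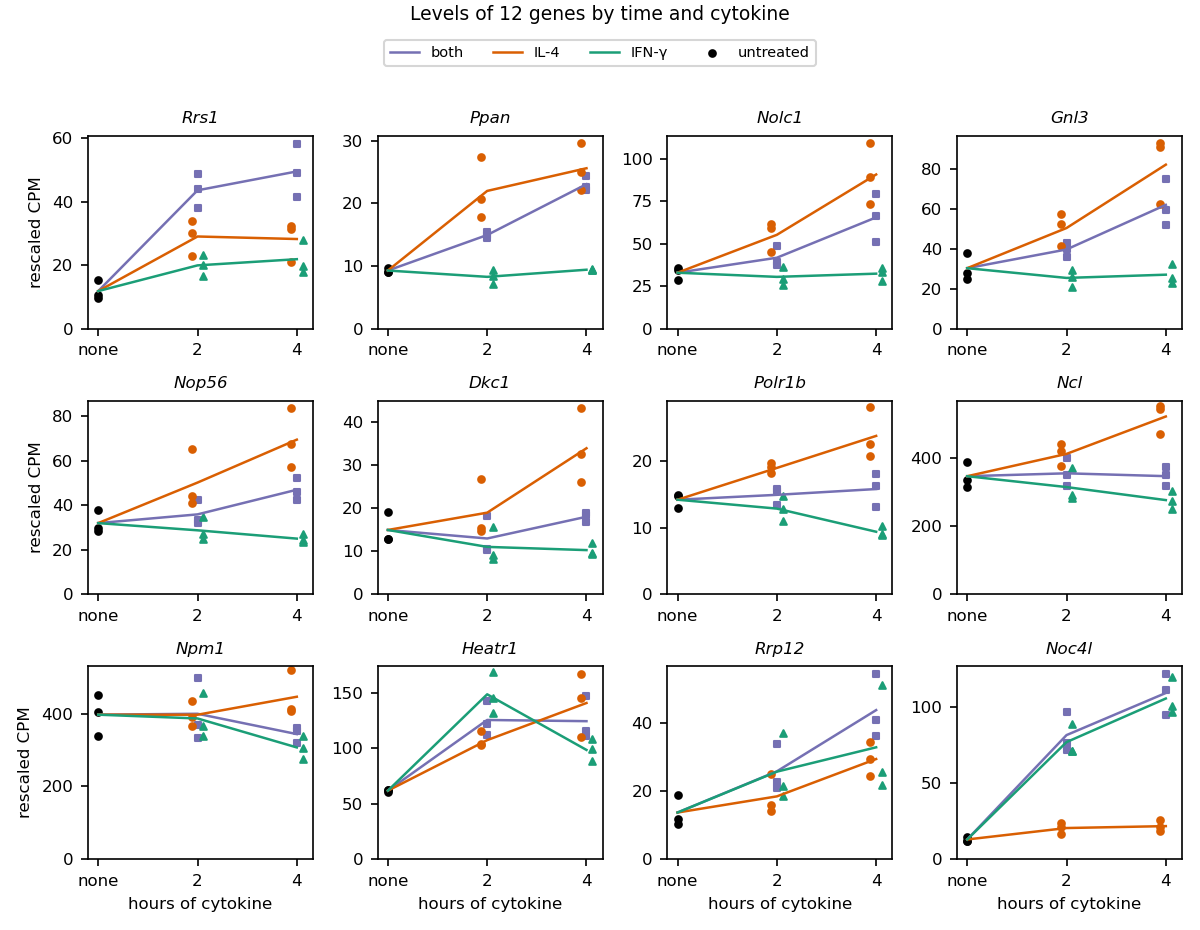
Rescaled CPM of 12 of the genes in untreated cells and after 2 h and 4 h of both cytokines, IL-4 or IFN-γ; points are libraries, lines join group means and every vertical axis starts at 0. Noc4l is highest with IFN-γ, with or without IL-4, and rises less with IL-4 alone. Ppan and Nolc1 follow IL-4, and Rrs1 is highest with both cytokines. Heatr1 has its highest mean at 2 h with IFN-γ alone, where its points overlap those of IL-4 at 4 h.

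With both cytokines together few genes were called at 2 h and most at 4 h. At 2 h, 9 of 46 genes rose and 0 fell, against 12.4% of all genes higher and 9.85% lower, and the members' median log2 change was 0.18. When the replicate number was a block, 22 rose, against 21.7% of all genes, and in CPM as deposited 18, against 18.1%. Noc4l was at 96.8, 71.5 and 76.0 rescaled CPM, against 12.2, 14.7 and 11.7 untreated (2.56 ± 0.16, adjusted p = 4.9e-09). Rrs1 was at 48.7, 43.9 and 37.9, against 15.4, 10.5 and 9.65 (1.81 ± 0.22, adjusted p = 8.4e-06). Both genes had every treated library far above the untreated ones. Nop58 rose by 1.01 ± 0.27, Heatr1 by 1.00 ± 0.15, Wdr43 by 0.98 ± 0.17, Ppan by 0.63 ± 0.13, Nop2 by 0.63 ± 0.15 and Gnl2, a GTPase of the large subunit, by 0.33 ± 0.10. Npm1, Ddx56, Ncl and Polr1e were nearest to no change, all within 0.04 of 0. Nop58 lost its call without replicate 2 of the combination or untreated replicate 3 (0.80 and 0.81, adjusted p 0.066 and 0.072), and Gnl2 without replicate 1 or 2 of the combination or untreated replicate 1 or 3 (0.27 to 0.32, adjusted p 0.077 to 0.14). The count was 4 and 14 without replicate 1 or 2 of every group.

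At 4 h of both cytokines 33 of 46 genes rose and 0 fell, against 22.1% of all genes higher and 20.7% lower (42.8% in either direction), and the median log2 change was 0.61. Noc4l was at 111, 121 and 94.6 rescaled CPM, against 12.2, 14.7 and 11.7 untreated (2.99 ± 0.16, adjusted p = 3.5e-10). Rrs1 was at 58.2, 48.8 and 41.3, against 15.4, 10.5 and 9.65 (1.98 ± 0.22, adjusted p = 1.5e-06). These were the highest means of both genes among the 7 groups. Rrp12 was at 40.8, 54.6 and 36.2, against 10.4, 18.9 and 11.9 untreated (1.63 ± 0.33, adjusted p = 6.6e-04), and Wdr43 at 119, 98.2 and 87.4, against 39.5, 35.2 and 29.0 (1.53 ± 0.17, adjusted p = 1.4e-06), again without overlap. Ppan rose by 1.22 ± 0.13, Rrp9 by 1.07 ± 0.23, Nop58 by 1.05 ± 0.27 and Gnl3 by 1.01 ± 0.20.

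By role, both cytokines at 4 h raised 4 of 4 box C/D genes, 9 of 12 small-subunit and 16 of 18 large-subunit genes, but 1 of 5 genes of RNA polymerase I transcription, Tcof1 (0.80 ± 0.15), 1 of 3 box H/ACA genes, Gar1 (0.80 ± 0.15), and 2 of 4 multifunctional genes, Ddx21 (0.96 ± 0.18) and Nolc1 (0.95 ± 0.18). Ncl, nucleolin, was at 375, 350 and 318 rescaled CPM, against 338, 389 and 316 untreated, with groups that overlapped fully (0.00 ± 0.13, adjusted p = 0.99). Ddx10, Wdr12 and Polr1e were also near no change (-0.04 ± 0.10, -0.10 ± 0.27 and -0.11 ± 0.14). Polr1a stood at -0.52 ± 0.22 (adjusted p = 0.065) and was lower with the replicate block (adjusted p = 0.0019), as was Npm1 (-0.20 ± 0.16, adjusted p = 0.33, and 0.039 with the block), whose change was 0.03 in CPM as deposited. The count of 33 was 19 without replicate 1 of every group.

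Between 2 h and 4 h of both cytokines 17 of 46 genes rose and 0 fell, against 9.48% of all genes higher and 8.82% lower, and the members' median log2 change was 0.37. With the replicate block 30 rose, against 23.2% of all genes, and in CPM as deposited 0 were called, with 3.31% of all genes higher. Rrp9 was at 18.4, 20.3 and 12.6 rescaled CPM at 4 h, against 10.8, 11.3 and 7.82 at 2 h (0.71 ± 0.23, adjusted p = 0.042). Its lowest 4 h library was only just above the highest at 2 h, and the call was lost without any 1 of the libraries but replicate 3 at 4 h (adjusted p 0.050 to 0.17). Nolc1, Gar1 and Gnl3 each rose by 0.62 (standard errors 0.18, 0.15 and 0.20), and Bysl and Ppan by 0.59 each. Nolc1 lost its call without replicates 2 or 3 at 2 h or 1 or 3 at 4 h (adjusted p 0.073 to 0.13), and Gnl3 without any library but replicate 2 at 4 h (0.059 to 0.16). Heatr1 (-0.02 ± 0.15), Ncl (-0.03 ± 0.13) and Polr1c (-0.03 ± 0.11) were nearest to no change. The count was 2 and 4 without replicate 1 or 3 of every group, and 9 without either replicate 3 at 2 h or replicate 1 at 4 h.

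The combination was then set against IL-4 alone, which asks what adding IFN-γ does to the response to IL-4. At 4 h 3 genes were higher and 10 lower with both cytokines, against 15.9% of all genes higher and 15% lower (30.9% in either direction), and the median log2 change was -0.16 (all genes -0.03). Under the replicate block 6 were higher and 19 lower, against 26.1% and 29.9%, and in CPM as deposited 1 was higher and 14 lower, against 8.59% and 18.5%. Noc4l was at 111, 121 and 94.6 rescaled CPM with both, against 21.2, 25.4 and 18.4 with IL-4 alone (2.28 ± 0.16, adjusted p = 1.6e-08). Rrs1 was at 58.2, 48.8 and 41.3, against 32.3, 31.3 and 21.1 (0.80 ± 0.22, adjusted p = 0.010), and Wdr43 was higher by 0.58 ± 0.17 (adjusted p = 0.014). In CPM as deposited Rrs1 (0.54, adjusted p = 0.14) and Wdr43 (0.31, adjusted p = 0.33) were not called, while the direction held. Rrs1 also lost its call without replicate 1 of the combination or replicate 3 of IL-4 (adjusted p = 0.052 and 0.065).

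Of the 10 lower genes 4 were polymerase I subunits, Polr1a, Polr1e, Polr1b and Polr1c. Polr1a was at 16.3, 15.2 and 14.3 rescaled CPM with both cytokines, against 28.8, 29.4 and 21.5 with IL-4 alone (-0.75 ± 0.22, adjusted p = 0.014), and Polr1e at 4.61, 4.42 and 3.92, against 7.80, 9.16 and 6.75 (-0.74 ± 0.14, adjusted p = 7.8e-04). Neither gene had overlapping groups. Polr1b was lower by -0.56 ± 0.13 and Polr1c by -0.34 ± 0.11 on the log2 scale. Dkc1 was at 18.7, 16.7 and 18.4, against 32.5, 43.1 and 26.1 (-0.85 ± 0.27, adjusted p = 0.024), and Ncl at 375, 350 and 318, against 555, 546 and 471 (-0.59 ± 0.13, adjusted p = 0.0020). In both genes every library with both cytokines was below every library of IL-4 alone. The remaining 4 were Wdr12 (-0.75 ± 0.27), Nop56 (-0.54 ± 0.18), Ddx10 (-0.39 ± 0.10) and Ddx56 (-0.27 ± 0.08).

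Among those 10, Dkc1 lost its call without replicate 2 or 3 of the combination or replicate 1 or 2 of IL-4 (adjusted p 0.051 to 0.11). Polr1a lost it without replicate 1 or 2 of IL-4 (0.053 to 0.054), and Wdr12 without any of the 6 libraries but IL-4 replicate 1 (0.057 to 0.18). The count of 13 was 4 and 5 without replicate 1 or 3 of every group, 8 without replicate 3 of the combination and 7 without IL-4 replicate 2. Ebna1bp2, Nop2 and Wdr74 were nearest to no difference (-0.01 ± 0.18, 0.01 ± 0.15 and 0.02 ± 0.11).

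At 2 h the combination differed from IL-4 alone in 4 genes: Noc4l was higher (1.95 ± 0.16, adjusted p = 3.0e-07), and Ppan (-0.51 ± 0.13), Nob1 (-0.36 ± 0.10) and Nop16 (-0.35 ± 0.11) were lower, against 8.76% of all genes higher and 5.95% lower. When the replicate number was a block, 4 were higher and 18 lower, against 16.5% and 16.6% of all genes. Ppan was at 15.4, 14.5 and 15.02 rescaled CPM with both, against 20.7, 27.5 and 17.8 with IL-4 alone, and the groups did not overlap. In CPM as deposited Noc4l alone was called, and the other 3 had adjusted p of 0.067 to 0.17. Ppan was not called without IL-4 replicate 2 (-0.34, adjusted p = 0.079) or replicate 2 of the combination (adjusted p = 0.050), Nob1 not without replicate 1 of the combination or replicate 1 or 2 of IL-4 (adjusted p 0.051 to 0.069), and Nop16 not without any 1 of the 6 libraries (0.054 to 0.18). The count of 4 was 1 without replicate 1 or 3 of every group, 7 without replicate 2, 2 without replicate 1 or 2 of the combination and 1 without IL-4 replicate 2. Nop2, Npm1 and Ebna1bp2 were within 0.02 of 0.

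**Figure D4:**
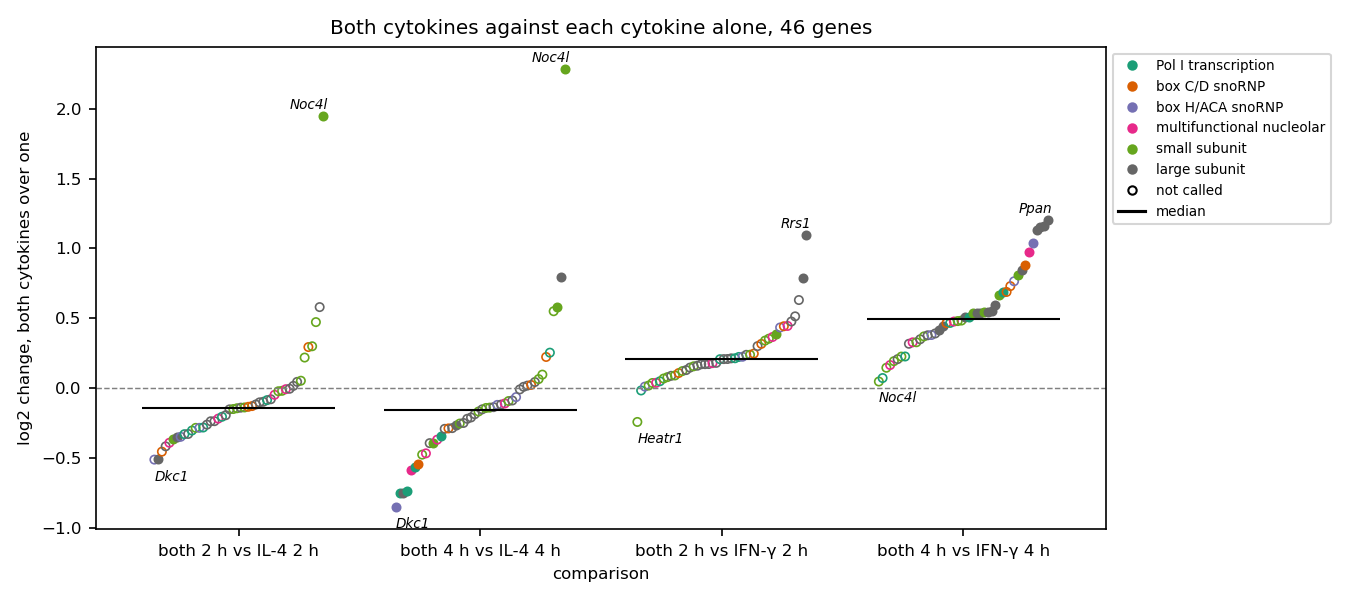
Log2 change of each of the 46 genes between both cytokines and a single one at the same time, ordered by size within a comparison; filled points were called, open points were not, colours give the role and the black line is the median. Against IL-4 the medians are -0.14 at 2 h and -0.16 at 4 h with Noc4l far above, and against IFN-γ they are 0.21 and 0.50 with Noc4l near 0 at 4 h.

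Set against IFN-γ alone, the combination shows what adding IL-4 does. At 4 h 22 of 46 genes were higher with both cytokines and 0 lower, against 5.93% of all genes in each direction, and the median log2 change was 0.50 (all genes -0.03). All 46 were above 0, and 44.8% of all genes were. With the replicate block 39 were higher, against 14% of all genes, and in CPM as deposited 13, against 3.93%. Ppan was at 24.4, 22.6 and 22.2 rescaled CPM with both, against 9.32, 9.41 and 9.57 with IFN-γ alone (1.21 ± 0.13, adjusted p = 9.9e-06). Gnl3 was at 74.7, 51.7 and 59.3, against 32.5, 23.1 and 25.5 (1.16 ± 0.20, adjusted p = 6.8e-04), and Rrp1b at 14.9, 14.5 and 14.4, against 5.19, 6.91 and 6.35 (1.13 ± 0.14, adjusted p = 4.1e-05). Every library with both cytokines was above every one with IFN-γ alone in these 3 genes. Rrs1 was higher by 1.15 ± 0.22, Gar1 by 1.04 ± 0.15 and Nolc1 by 0.98 ± 0.18. Noc4l did not differ beyond the spread (0.05 ± 0.16, adjusted p = 0.94), nor did Polr1c (0.07 ± 0.11) or Ddx10 (0.15 ± 0.10). The count of 22 was 8 and 10 without replicate 1 or 3 of every group.

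At 2 h 3 genes were higher with both cytokines than with IFN-γ alone and 0 lower, against 2.23% and 0.782% of all genes (3.01% in either direction). They were Rrs1 (1.09 ± 0.22, adjusted p = 0.0073), Ppan (0.79 ± 0.13, adjusted p = 0.0020) and Nob1 (0.39 ± 0.10, adjusted p = 0.030). Rrs1 was at 48.7, 43.9 and 37.9 rescaled CPM with both, against 23.3, 20.1 and 16.5 with IFN-γ alone. Each library with both cytokines was above those of IFN-γ alone by a wide margin. Under the replicate block 13 were higher, against 5.77% of all genes. Nob1 was not called in CPM as deposited (adjusted p = 0.75) or without any 1 of the 6 libraries (0.067 to 0.15), and Rrs1 was not called without IFN-γ replicate 3 (0.97, adjusted p = 0.055). The count was 1, 1 and 0 without replicate 1, 2 or 3 of every group, and 1 without IFN-γ replicate 3. Nhp2, Polr1c and Ddx10 were within 0.02 of 0.

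The single cytokines were also compared with each other at the same time. At 4 h IL-4 was above IFN-γ in 36 of 46 genes and below it in 1, against 20.2% and 21.7% of all genes (41.9% in either direction), with a median log2 change of 0.66 (all genes 0.01). Dkc1 was at 32.5, 43.1 and 26.1 rescaled CPM with IL-4, against 9.32, 11.7 and 9.54 with IFN-γ (1.62 ± 0.27, adjusted p = 1.2e-04), and Gnl3 at 92.7, 90.6 and 62.4, against 32.5, 23.1 and 25.5 (1.56 ± 0.20, adjusted p = 7.5e-06). In neither gene did the groups overlap. Nolc1 was higher by 1.44 ± 0.18, Nop56 by 1.43 ± 0.18 and Ppan by 1.34 ± 0.13. Noc4l was the 1 gene lower with IL-4, at 21.2, 25.4 and 18.4, against 119, 100 and 96.6 with IFN-γ (-2.24 ± 0.16, adjusted p = 9.1e-09). Wdr43, Rrp12 and Ltv1 differed least (-0.03 ± 0.17, -0.07 ± 0.33 and 0.10 ± 0.20).

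At 2 h IL-4 was above IFN-γ in 17 genes and below it in 2, against 8.81% and 10.5% of all genes, with a median log2 change of 0.34. Ppan (1.29 ± 0.13), Gnl3 (0.96 ± 0.20), Nolc1 (0.84 ± 0.18), Gar1 (0.78 ± 0.15) and Nop56 (0.77 ± 0.18) were higher with IL-4. Noc4l (-1.87 ± 0.16) and Heatr1 (-0.46 ± 0.15, adjusted p = 0.033) were lower. Heatr1 was not called in CPM as deposited (adjusted p = 0.35). When the replicate number was a block, 34 were higher and 3 lower, against 19% and 20.1% of all genes. The count of 19 was 8 and 10 without replicate 1 or 3 of every group. Utp20, Ddx10 and Npm1 differed least, all within 0.05 of 0.

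Over the 7 groups, 33 of the 46 genes had their highest mean at 4 h of IL-4, 12 at 4 h of both cytokines and 1, Heatr1, at 2 h of IFN-γ. The 12 were Tcof1, Fbl, Rrp9, Wdr43, Noc4l, Bysl, Ltv1, Rrp12, Nop2, Rrs1, Wdr74 and Noc2l. Of these only Noc4l, Rrs1 and Wdr43 were called between both cytokines and IL-4 at 4 h. The other 9 were not called in that fit, whose spread holds the differences between replicates, so the order of these groups is open in them. With the replicate block Tcof1, Rrp9 and Rrp12 were called (adjusted p = 0.018, 0.015 and 0.0014). The changes of Tcof1 and Rrp9 were -0.01 and -0.03 in CPM as deposited. Rrp12 was at 40.8, 54.6 and 36.2 rescaled CPM with both cytokines, against 29.5, 34.4 and 24.6 with IL-4 alone, higher in each same-numbered pair. Of the 33, only the 10 given above as lower with both cytokines were called against IL-4 at 4 h in the fit without the block. The order of these groups is open in the rest of the 33. The lowest mean was that of IFN-γ at 4 h for 18 genes, of untreated cells for 16 and of IFN-γ at 2 h for 12. Of the 18, only Polr1a, Polr1b, Polr1e and Rrp1b were called lower than untreated cells, and no member was at 2 h of IFN-γ. Such counts over all genes are not given, so these have no background beside them.

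Libraries of a group differed in a way that followed the replicate number. Summed over the 46 genes, replicate 3 was the lowest of its group in 7 of 7 groups. The sums at 4 h of IL-4 were 3259, 3457 and 2736 rescaled CPM in replicates 1, 2 and 3, against 1945, 2191 and 1757 in untreated cells. The lowest IL-4 library was above the highest untreated one. With IFN-γ at 4 h they were 2081, 2138 and 1906, which overlapped the untreated ones, and at 4 h of both cytokines they were 2989, 2748 and 2568. The proliferation genes named above also differed by replicate number, and their part in the results was not tested. None of those 18 genes was called in any of the 6 comparisons with untreated cells (0 of 18 in each). Of all genes 8.63% to 42.8% were called there in either direction. The fit behind these calls held no replicate block, so the differences of the 18 genes by replicate number count as spread. It therefore cannot show whether these genes changed.

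**Figure D5:**
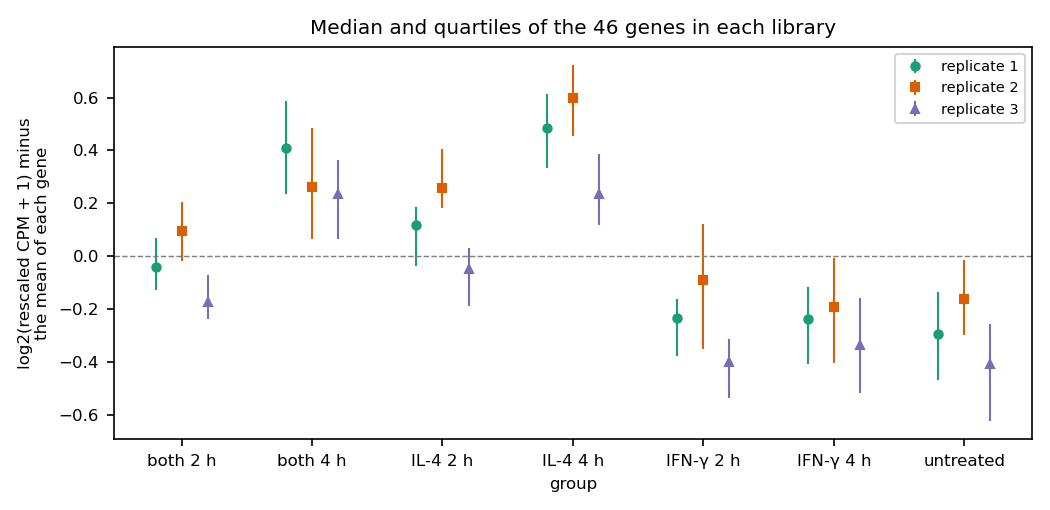
Median over the 46 genes of log2(rescaled CPM + 1) minus the gene's mean, for each library, with bars from the lower to the upper quartile of the genes; colours and shapes give the replicate number. Replicate 3 has the lowest median in each of the 7 groups, and all libraries of IL-4 and of both cytokines at 4 h are above 0.2.

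Further genes of the pathway, from lists that leave out the 46, were also called in part. These lists, like the 46 genes, were chosen with earlier results of these data known, so they are a description and not separate support. At 4 h of IL-4, 19 of 44 other small-subunit factors and 20 of 38 other large-subunit factors rose and 0 of either fell, with median log2 changes of 0.38 and 0.42, where 11.4% of all genes were higher and 10.6% lower. Examples were Wdr46 (1.66 ± 0.13), Tsr1 (1.44 ± 0.24) and Rrp8 (1.35 ± 0.12), and Rsl1d1 (0.97 ± 0.15), Nol9 (0.96 ± 0.12) and Gtpbp4 (0.93 ± 0.18). Of 11 other polymerase I factors 3 rose, Cd3eap (0.52 ± 0.13), Rrn3 (0.42 ± 0.11) and Taf1a (0.41 ± 0.10), as did 4 of 10 genes of snoRNP assembly, among them Ruvbl1 (0.59 ± 0.11) and Nufip1 (0.54 ± 0.17), and 3 of 10 exosome genes, Exosc2 (0.67 ± 0.19), Exosc7 (0.66 ± 0.10) and Exosc1 (0.65 ± 0.14). Of the proteins of the finished ribosome few were called: 2 of 77 tested ribosomal protein genes were called, Rps19 (0.46 ± 0.12) and Rps27a (0.36 ± 0.12), a share below that of all genes, and the median of the 77 was 0.07.

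The same lists at 4 h of IFN-γ had 7 higher and 4 lower of 44, 9 higher and 3 lower of 38, and 1 higher and 2 lower of 11, where 20.6% of all genes were higher and 18.5% lower, so these shares were near the background or below it. Among the genes called were Sdad1 (1.51 ± 0.16) and Ddx31 (1.42 ± 0.14) for the large subunit and Nol10 (1.34 ± 0.13) and Riok3 (0.95 ± 0.18) for the small subunit. Cd3eap and Ubtf, a subunit and an activator of polymerase I, fell (-0.59 ± 0.13 and -0.38 ± 0.13), while the subunit Twistnb rose (0.47 ± 0.13). With both cytokines at 4 h 19 of 44 and 21 of 38 were higher and 1 of each was lower, where 22.1% of all genes were higher and 20.7% lower, led by Tsr1 (1.72 ± 0.24) and Nol10 (1.42 ± 0.13), and by Sdad1 (1.81 ± 0.16) and Ddx31 (1.58 ± 0.14). Of the ribosomal protein genes 22 of 77 were then higher, a share near that of all genes, and 0 lower, with a median of 0.24, among them Rps19 (0.57 ± 0.12), Rpl39 (0.55 ± 0.15) and Rps10 (0.53 ± 0.19). Ribosomal protein genes have many processed copies in the genome, so their counts are uncertain.

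Myc itself was at 40.5, 38.3 and 26.7 rescaled CPM at 4 h of IL-4, against 3.404, 4.11 and 2.42 in untreated cells (3.06 ± 0.23, adjusted p = 4.7e-08). With both cytokines at 4 h it was at 40.2, 28.3 and 26.5 (2.92 ± 0.23), and with IFN-γ at 4 h at 2.47, 2.27 and 1.54, not called (-0.47 ± 0.23, adjusted p = 0.11, and 0.0040 with the replicate block). Between both cytokines and IL-4 alone Myc was not called at 4 h (-0.15 ± 0.23, adjusted p = 0.69) or at 2 h (-0.41 ± 0.23, adjusted p = 0.31), but at 2 h it was lower with the replicate block (adjusted p = 0.019).

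Some reads could belong to neighbouring genes, since the sources used here do not say whether counting used the strand. Exons of 19 of the 46 genes overlapped those of another gene. The largest overlaps were those of Noc2l with Samd11 (20.9% of exon length) and Bysl with Ccnd3 (9.37%). Mrto4 was the 1 member with pseudogenes named after it (2), and its reads are uncertain to that extent. The search went by gene name only, so copies under other names were not counted. Reads of other members may be uncertain in the same way.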

How the data were processed

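Poly(A) RNA libraries of 21 samples (7 groups of 3) were analysed. The values are CPM, read counts per gene scaled to a common library total, as deposited by the authors. TopHat2 2.1.0, HTSeq and edgeR are named in the submitters' processing notes, and their settings are not given in the sources used here. All values were whole multiples of 1 read within 0.01, so whole reads were recovered and used for count tests as alternatives.

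Because the ribosomal RNA gene Rn45s took very different shares of reads, CPM was rescaled by a median-ratio factor per library (0.573 to 1.22). The share of Lars2 differed as well, at 74170 and 27637 CPM as deposited in untreated replicates 2 and 3. Lars2 was at 1197 in untreated replicate 1 and at most 10138 in treated libraries. The 11380 genes that reached 1 CPM in 3 or more libraries were tested on log2(rescaled CPM + 1) with limma 3.58.1 (trend, all 7 groups in 1 fit, 14 residual degrees of freedom), with Benjamini-Hochberg adjustment within a comparison. The procedure was tested on simulated data. The genes named were the 8 largest called changes and 4 smallest changes of a comparison with untreated cells, the 6 and 3 of any other comparison, the highest of each role, those that fell, and 3 of each further list. Members named beyond this rule were chosen after their values were seen.

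Same-numbered libraries of different groups deviated together (correlations of 0.540 to 0.951 over 63 pairs, against -0.859 to 0.369 for 126 pairs of different number), so the numbers pair the samples and a fit with the replicate block was compared. The 46 genes and all lists were chosen with earlier results of these data known. Alternatives were CPM as deposited, a pseudocount of 0.25, no filter, edgeR 4.0.16, DESeq2 1.42.0 and leaving out libraries. Promoters and coordinates came from RefSeq (GRCm38.p6) and GENCODE vM21 (GRCm38). A further promoter motif is not reported here.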

Additional observations from a re-analysis of the deposited data

Results flagged for a closer look

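For 20 genes the change against untreated cells differed between 4 h and 2 h of the same treatment, by a test of the difference itself (limma, adjusted p under 0.05, log2 values of 4 h minus 2 h). In that test 18.3% of all genes were called in either direction with both cytokines, 2.79% with IL-4 and 17.7% with IFN-γ. The members' share with IFN-γ was below that of all genes. With both cytokines the differences were 0.50 for Tcof1, 0.51 for Fbl, 0.71 for Rrp9, 0.62 for Gar1, 0.62 for Nolc1, 0.54 for Wdr43, 0.59 for Bysl, 0.38 for Nob1, 0.54 for Nat10, 0.59 for Nop16, 0.62 for Gnl3, 0.59 for Ppan, 0.47 for Wdr74, 0.57 for Bop1, 0.44 for Rrp1b, 0.33 for Ddx56 and 0.44 for Noc2l. With IL-4 they were 0.55 for Nat10, 0.46 for Nop16 and 0.36 for Ddx56. With IFN-γ they were -0.41 for Polr1b, -0.44 for Polr1e, -0.59 for Heatr1 and 0.40 for Bysl. In CPM as deposited only that of Heatr1 was called.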

How the results depend on the processing

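Of 690 member changes (46 genes in 15 comparisons), 73 had the opposite sign in CPM as deposited. None of the 73 was called on either scale, but 3 were with the replicate block on rescaled CPM: Npm1 for both cytokines at 4 h against untreated cells (-0.20, and 0.03 as deposited), and Tcof1 and Rrp9 for both against IL-4 at 4 h (0.25 and 0.22, and -0.01 and -0.03 as deposited). The counts of genes called, out of 46, moved as follows. Shares of all genes called in either direction stand in brackets for CPM as deposited and for the replicate block on rescaled CPM. For the other settings they are not given. Those counts alone cannot tell a change of the members from a change in the calls over all genes. In CPM as deposited they were 37 for IL-4 at 2 h (16.7%) and 7 for IFN-γ at 4 h (25.3%) against untreated cells. For both cytokines at 2 h against untreated cells the count was 18, and here the share called higher is given (18.1%). It was 1 for both against IL-4 at 2 h (8.27%) and 13 for both against IFN-γ at 4 h (6.13%). For 4 h against 2 h it was 0 with both (8.46%), 0 with IL-4 (0.659%) and 1 with IFN-γ (8.04%). The replicate block rests on the pairing of the numbers. Against untreated cells it gave 36 and 11 for IL-4 and IFN-γ at 2 h (25.8% and 38.4%). It gave 25 for IFN-γ at 4 h (63.4%) and 22 for both at 2 h (43.9%). Both against IL-4 gave 22 and 25 at 2 h and 4 h (33.2% and 56%). Both against IFN-γ gave 13 and 39 (10.4% and 32.6%), and IL-4 against IFN-γ at 2 h gave 37 (39%). For 4 h against 2 h of both, IL-4 and IFN-γ the block gave 30, 30 and 17 (47.1%, 20.1% and 45.4%). With the block on CPM as deposited the counts were 44, 7 and 27 for IL-4, IFN-γ and both at 2 h against untreated cells. They were 23 for both against IL-4 at 4 h, and 4 and 5 for 4 h against 2 h of both and IL-4. DESeq2 on recovered reads gave 5 for both against IFN-γ at 2 h and 7 for 4 h against 2 h of IL-4, and no filter gave 2 for 4 h against 2 h of IFN-γ. With untreated replicate 1, the library low in Rn45s, as the only control (its spread assumed like that of the other groups), they were 3 and 26 for IL-4, 2 and 5 for IFN-γ at 2 h and 4 h, and 5 for both at 2 h. Leaving out libraries gave, against untreated cells, 4 to 14 and 19 to 34 for both, 4 to 17 and 23 to 41 for IL-4, and 2 to 4 and 5 to 19 for IFN-γ at 2 h and 4 h. It gave 1 to 7 and 4 to 13 for both against IL-4, 0 to 2 and 8 to 27 for both against IFN-γ, 8 to 19 and 28 to 38 for IL-4 against IFN-γ, and 2 to 21, 0 to 7 and 0 to 5 for 4 h against 2 h of both, IL-4 and IFN-γ. The cause of these moves was not tested. Of 140 gene results the block on rescaled CPM ended none and added 1 call, Polr1c at 4 h of IL-4. Those 140 were the results named by rule, mostly the largest called and the smallest changes, so they say little on the members between. Over all 46 genes the block moved the counts as given above.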
